A study of Mus musculus with 2 samples.

Results

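The HoxD cluster with its neighbour Evx2 was examined in a window of chromosome 2 from 74400000 to 74620000 (mm8 build). All peaks of the authors' deposited list that overlap this window were taken as members, 26 of 3445. The reads came from E14, a mouse embryonic stem cell line, kept on gelatin with LIF, a cytokine that holds such cells pluripotent. The PHF19 ChIP library holds DNA recovered from sonicated nuclei with a rabbit polyclonal antibody raised against PHF19, and the input library holds DNA of the same line taken without antibody. No genotype change, treatment or time course is given for either. Each group had 1 library. Without replicates, the tests set the reads of one library against those of the other and say nothing of the spread between cultures. Neither library controlled for the specificity of the antibody, and no expression was measured that could check the labelled cell type.

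PHF19 is a Polycomb-like protein that associates with PRC2, the complex that methylates lysine 27 of histone H3 and keeps developmental genes silent. Its Tudor domain binds histone H3 methylated at lysine 36. The HoxD genes encode homeodomain transcription factors that pattern the body axis and the limbs. Their order along the chromosome parallels the order in which they are used, with Hoxd1 early and anterior and Hoxd13 late and posterior. In embryonic stem cells Hox clusters are known as broad Polycomb domains.

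The gene order was read from the RefSeq table of another build, GRCm38.p6. All 10 genes were found there. With rising position it runs Evx2, Hoxd13, Hoxd12, Hoxd11, Hoxd10, Hoxd9, Hoxd8, Hoxd3, Hoxd4 and Hoxd1, ordered by the start of each gene model. Mtx2, a mitochondrial gene that is not part of the cluster, is the next protein-coding gene beyond Hoxd1. Evx2 is a homeobox gene of the even-skipped family. Hoxd13 and Hoxd12 act in digits and genitalia, Hoxd11 also in the forearm, and Hoxd10 and Hoxd9 in the hind part of the trunk and limb. Hoxd4 and Hoxd3 act in the hindbrain and neck, and Hoxd1 in sensory neurons. The low end of the window is therefore called the Evx2 side and the high end the Hoxd1 side, which takes the direction to be the same in mm8. No gene annotation of mm8 was used here, so no peak is placed at a gene or called exonic, intronic or promoter.

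Promoters of the 10 genes are shown because Polycomb complexes are known to gather at DNA rich in unmethylated CG dinucleotides. The RefSeq promoter table (GRCm38.p6, 250 bases before to 50 after a start) held 11 promoters of these genes, 2 of them of Hoxd11. They are described by sequence alone, since they could not be placed on the mm8 read map. The ends and a middle gene of the cluster are printed 5′ to 3′ on the gene's strand, with every CG in capitals. In GRCm38.p6 they lie at chr2:74659508-74659807 (Evx2, minus strand), chr2:74667975-74668274 (Hoxd13, plus), chr2:74704365-74704664 (Hoxd8, plus) and chr2:74762730-74763029 (Hoxd1, plus).
Evx2: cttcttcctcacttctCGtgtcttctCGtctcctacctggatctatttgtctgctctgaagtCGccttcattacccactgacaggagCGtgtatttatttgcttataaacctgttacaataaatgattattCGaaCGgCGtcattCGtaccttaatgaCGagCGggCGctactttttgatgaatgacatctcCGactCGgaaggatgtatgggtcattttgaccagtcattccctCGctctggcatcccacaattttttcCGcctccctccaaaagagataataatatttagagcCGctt
Hoxd13: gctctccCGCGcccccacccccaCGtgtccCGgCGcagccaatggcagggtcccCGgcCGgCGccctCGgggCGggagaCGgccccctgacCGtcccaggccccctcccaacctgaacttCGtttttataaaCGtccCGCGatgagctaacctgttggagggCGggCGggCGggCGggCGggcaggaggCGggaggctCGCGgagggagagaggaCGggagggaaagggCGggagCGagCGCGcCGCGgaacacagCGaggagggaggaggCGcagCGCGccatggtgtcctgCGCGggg
Hoxd8: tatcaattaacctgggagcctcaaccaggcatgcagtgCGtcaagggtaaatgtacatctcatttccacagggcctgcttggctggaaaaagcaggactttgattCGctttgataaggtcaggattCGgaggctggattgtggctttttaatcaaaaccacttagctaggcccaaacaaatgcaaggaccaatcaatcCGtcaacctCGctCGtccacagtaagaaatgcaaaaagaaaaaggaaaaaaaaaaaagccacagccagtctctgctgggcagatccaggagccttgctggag
Hoxd1: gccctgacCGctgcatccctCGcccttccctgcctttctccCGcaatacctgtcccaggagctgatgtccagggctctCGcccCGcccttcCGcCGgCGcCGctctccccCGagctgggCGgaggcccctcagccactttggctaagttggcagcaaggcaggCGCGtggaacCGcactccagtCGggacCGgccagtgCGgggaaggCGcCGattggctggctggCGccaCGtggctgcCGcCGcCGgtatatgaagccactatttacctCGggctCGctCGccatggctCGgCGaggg

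The promoter of Hoxd13 held 37 CG dinucleotides, and 5.58% of all 32851 promoters of this length held at least as many. Hoxd1 had 29 (12.9% of all promoters held at least as many) and Evx2 had 16 (33.0%). Hoxd8 had 6, a count reached by 56.4% of promoters. The 11 promoters ranged from 4, in Hoxd4 and 1 of the Hoxd11 promoters, to 37, with a median of 20 against 7 over all promoters. CG-rich and CG-poor promoters thus lie side by side in this gene order. A CG reads the same on both strands, so 1 strand was counted.

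PHF19 ChIP reads were raised over both spans of peaks, at folds of 4.11 on the Evx2 side and 3.14 on the Hoxd1 side, and the flanks together had a fold of 1.05. The window held 4541 distinct ChIP reads and 2224 distinct input reads, out of 21957101 and 24496988 in the libraries. Fold means ChIP reads over input reads after both were divided by their library's number of distinct reads. It was 2.28 over the window (2.16 to 2.40; this and all later intervals are exact 95% intervals for counting error only, and may be too narrow because amplified reads are not independent molecules). Scaled to the ChIP total, the input predicts 1993 reads in the window, so 2548 ChIP reads were in excess. Of that excess, 77.0% lay in the 26 peaks, which cover 25.3% of the window. The gaps between neighbouring peaks on either side of the central break held 17.8%, the break 3.22% and both flanks together 1.93%.

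**Figure D1:**
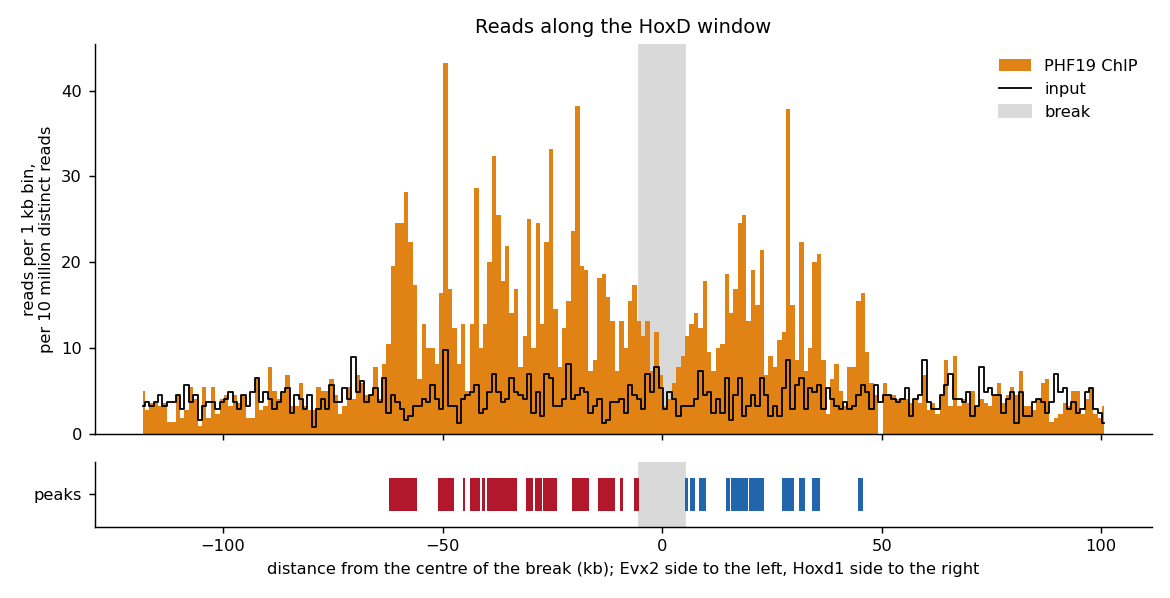
Reads per 1 kb bin (y axis, scaled to the same number of distinct reads in both libraries) of the PHF19 ChIP (orange) and input (black line) against distance in kb from the centre of the break (x axis), with the peaks as bars below. The ChIP stands above the input in all 57 bins of the Evx2 side, 38 of 40 of the Hoxd1 side and 9 of 10 of the break (grey), and in 34 of 57 and 33 of 56 bins of the flanks.

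All 26 peaks were called, which means a fold of at least 2 and an adjusted p under 0.05 (binomial test given the summed reads, exact and two-sided, Benjamini-Hochberg adjustment over the whole list). Of all 3445 peaks 98.5% were called, so this count says nothing particular about HoxD, and the peaks were found on these same ChIP reads. Over the members the fold ran from 2.76 to 8.62 with a median of 4.28, against a median of 3.68 over the list. A fold of at least 4 was reached by 17 of the 26 members (65.4%) and by 40.6% of the list. By side these were 14 of 16 peaks on the Evx2 side (87.5%) and 3 of 10 on the Hoxd1 side (30%). Neither share was tested against the list. The median fold of the Hoxd1 side, 3.82, lay above the list median of 3.68, so its share below that of the list does not mark it as weaker. The members were 604 to 6769 bp wide, with a median of 1745 bp against 1425 bp. By the authors' own score, 17 members lay at or above the median of the list and 1 among its 100 highest.

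The highest fold of all members lay near the outer end of the Evx2 side, in its second peak. Peak 1, counted along the chromosome, had 53 ChIP against 14 input reads, which is 4.22-fold. Peak 2, at 74458043 to 74463026, had 255 ChIP against 33 input reads, which is 8.62-fold (5.98 to 12.8; adjusted p = 3.70e-47 by the exact test). This peak ranked 33 by the authors' score and 68 by fold among the 3445. Its ChIP density of 51.2 reads per kb was the fourth highest of the members, and its input density was 0.736 times the chromosome median of 9 reads per kb. Peaks 3 to 7 followed, with 20 to 145 ChIP reads and folds of 3.19 to 6.42. Within them, peak 4 had the highest ChIP density of all members, at 58.3 reads per kb, with 145 ChIP and 34 input reads. Peak 5 (20 against 7 reads) had the lowest fold of this side, 3.19 (1.29 to 8.92), and the weakest test of all members (adjusted p = 0.00894 by the same exact test).

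The middle of the Evx2 side held 3 of its 4 widest peaks. Peak 8, at 74478983 to 74485751, was the widest member at 6769 bp and held the most ChIP reads, 321 against 87 in the input, a fold of 4.12 (3.24 to 5.28). Peaks 9, 10 and 11 held 76, 73 and 163 ChIP reads at folds of 3.53, 5.09 and 4.33. Peak 12, at 74498269 to 74502203, had 220 ChIP against 45 input reads, which is 5.45-fold (3.94 to 7.69). Nearest to the break lay smaller peaks. Peaks 13, 14 and 15 held 77, 60 and 25 ChIP reads against 12, 15 and 5 in the input, with folds of 7.16, 4.46 and 5.58. Peak 16, the last before the break, at 74512325 to 74513529, held 54 against 8 reads, a fold of 7.53 (3.56 to 18.3).

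The Hoxd1 side began with small peaks. Peak 17, the first after the break, at 74524042 to 74524754, had 22 ChIP against 7 input reads, which is 3.51-fold (1.45 to 9.72). Peaks 18 and 19 held 37 against 11 and 58 against 23 reads, at folds of 3.75 and 2.81. Peak 20 held 49 against 12, at 4.56. The intervals of peaks 16 and 17, which face each other across the break, overlap.

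The strongest stretch of the Hoxd1 side lay next to these, in 3 large peaks. Peak 21, at 74534402 to 74538399, held 174 ChIP and 38 input reads and had the highest fold of this side, 5.11 (3.58 to 7.46). Peak 22, at 74538555 to 74542082, held 136 against 39, a fold of 3.89 (2.71 to 5.71). Peak 23, at 74546121 to 74548812, held 141 against 39, a fold of 4.03 (2.81 to 5.91). These 3 peaks held 55.7% of the ChIP reads in peaks of this side, and the 3 largest of the Evx2 side held 46.7% of theirs. Peaks 24 and 25 held 55 against 19 and 85 against 24 reads, at folds of 3.23 and 3.95. Peak 26, at 74563326 to 74564487, closed the run of peaks with the lowest fold of all members, 2.76 (1.64 to 4.83), from 52 against 21 reads. Its input density was 2.01 times the chromosome median, the highest among the members.

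**Figure D2:**
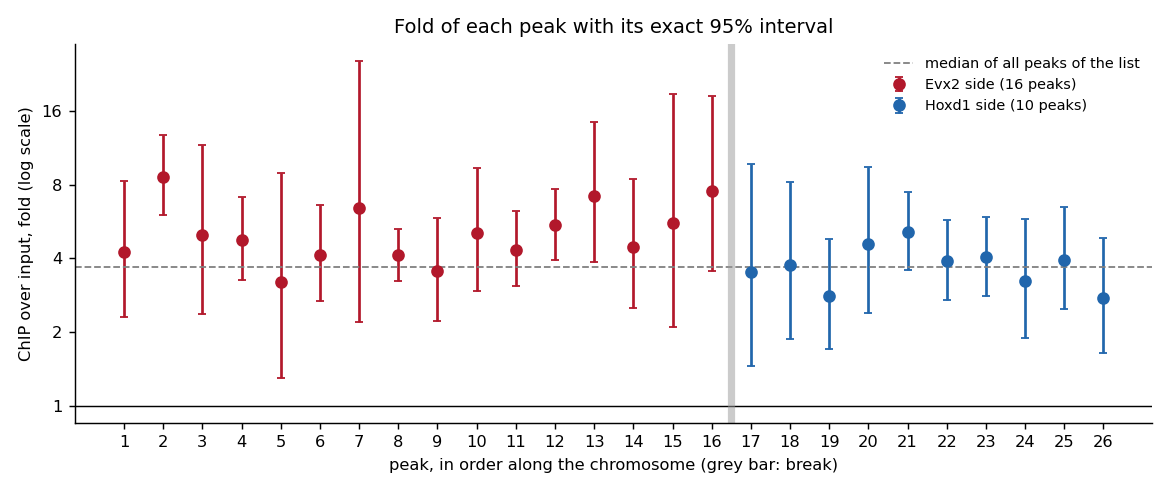
Fold of ChIP over input (y axis, log scale) for each of the 26 peaks in order along the chromosome (x axis), with exact 95% intervals. Folds run from 3.19 to 8.62 on the Evx2 side (red) and from 2.76 to 5.11 on the Hoxd1 side (blue), and the dashed line marks the median of the list, 3.68.

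The folds of the members varied more with the input than with the ChIP. ChIP density ran from 30.5 to 58.3 reads per kb, a range of 1.91 times, and input density from 5.76 to 18.1, a range of 3.14 times. On the log2 scale the SD over the 26 peaks was 0.27 for ChIP density and 0.43 for input density, while counting error alone gives a median of 0.18 and 0.32. The rank correlation of fold with input density was -0.72, and with ChIP density 0.23 (Spearman, 26 peaks of 1 pair of libraries, a description only). Fold and input density share the input count, so part of the first value comes from the way fold is built. Of the 7 members with input below the chromosome median, all were on the Evx2 side, among them peaks 2, 13 and 16, which had the 3 highest folds. The part of input density in their folds was not tested.

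**Figure D3:**
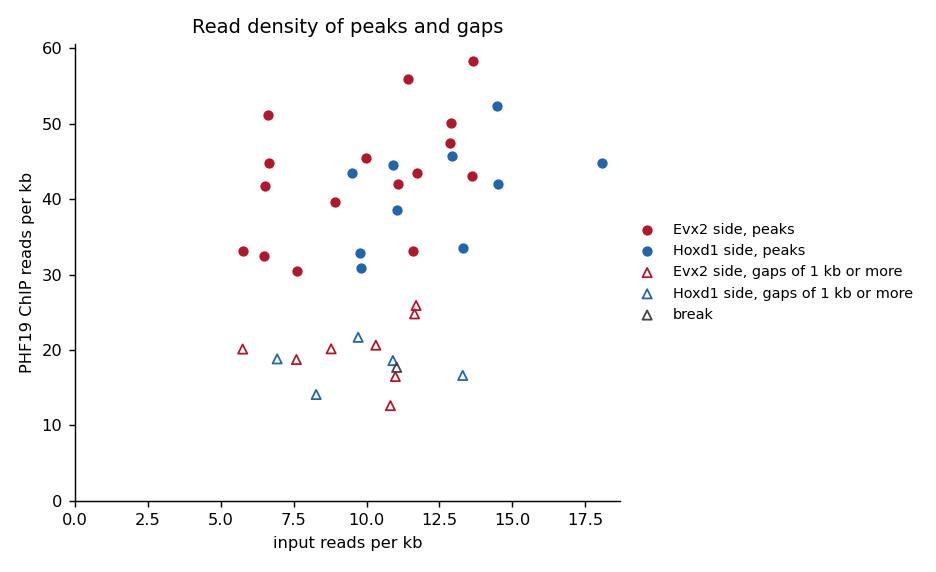
PHF19 ChIP reads per kb (y axis) against input reads per kb (x axis) for the 26 peaks (filled circles) and the gaps of at least 1 kb between them (open triangles). Peaks lie at 30.5 ChIP reads per kb or more on both sides, and the input spreads from 5.76 to 18.1 reads per kb among them.

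The comparison of the sides asked whether recovery differed between the Evx2/Hoxd13 end and the Hoxd1 end. The window was split at the widest gap between its peaks, which leaves 16 peaks over 56.8 kb on the Evx2 side and 10 over 40.4 kb on the Hoxd1 side. In peaks the fold was 4.98 (4.45 to 5.58) on the Evx2 side, from 1705 ChIP and 382 input reads. On the Hoxd1 side it was 3.87 (3.34 to 4.50), from 809 and 233 reads. The ratio was 1.29 (1.06 to 1.55; Fisher's exact test, two-sided, p = 0.00754, adjusted p = 0.0177 over 11 comparisons). Single peaks of the sides overlapped in fold, with medians of 4.86 and 3.82. The ChIP density in peaks was 1.11 times higher on the Evx2 side (46.8 against 42.1 reads per kb), and the input density was 0.864 times that of the Hoxd1 side (10.5 against 12.1). The difference of the peak folds did not pass the test when the split was made at the middle of the span (ratio 1.23, adjusted p = 0.0591, Fisher's exact test), nor when only peaks at or above the median score were used (ratio 1.16, adjusted p = 0.268, same test).

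Over the whole spans, peaks and gaps together, the fold was 4.11 (3.75 to 4.51) on the Evx2 side and 3.14 (2.81 to 3.52) on the Hoxd1 side, a ratio of 1.31 (1.13 to 1.51; Fisher's exact test, adjusted p = 0.00121). Here the input densities were close, at 10.2 and 10.4 reads per kb, and the ChIP densities were 37.5 and 29.2. Peaks covered 64.1% of the Evx2 span and 47.5% of the Hoxd1 span. Between the peaks no difference of the sides passed the test. The gaps had a fold of 2.41 (2.03 to 2.87) on the Evx2 side and 2.23 (1.87 to 2.68) on the Hoxd1 side, and the ratio of 1.08 had an interval of 0.841 to 1.39 (Fisher's exact test, adjusted p = 0.534).

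Single bins of 1 kb were counted without the peak list. Of 220 bins in the window 44 were called for excess ChIP reads. The test was the binomial one used for peaks, here one-sided and adjusted over 2531234 bins of the genome, of which 0.157% were called. The Evx2 side had 31 called bins of 57, the Hoxd1 side 13 of 40, and the break and both flanks had 0 of 10, 57 and 56. All 44 touched a peak, and both were drawn from the same ChIP reads. At an unadjusted p under 0.05 the same one-sided test gave 94 bins in the window. The share of all bins at that level was not worked out, so this count has no background to be read against. The 3 called bins with the most ChIP reads on the Evx2 side started at 74469001 (95 ChIP against 24 input reads), 74499001 (84 against 11) and 74493001 (73 against 16). Those of the Hoxd1 side started at 74547001 (83 against 21), 74537001 (56 against 5) and 74536001 (54 against 16). The largest fold of a bin in the window was 17.3 (6.42 to 65.5), at 74460001 inside peak 2, from 62 ChIP and 4 input reads.

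ChIP reads were also raised between the peaks, where the gaps of both sides together had a fold of 2.32 (2.06 to 2.63). Of the 25 gaps between neighbouring members, the break included, 10 (40.0%) were called higher in the ChIP (exact two-sided test, adjusted over 1036 gaps of at most 20 kb in the whole list), against 33.2% of all such gaps. Gaps under 1 kb hold few reads. Of the 14 members' gaps of 1 kb or more, 10 were called, against 60.6% of 492 in the list, so the share called lay near the background in either count. Their median fold was 2.30, against 1.83 over the 492. They were also shorter, with a median width of 2240 bp against 3780.5 bp, and folds were not compared at equal width. On the Evx2 side the highest fold of such a gap was 3.90 (2.02 to 8.15; 42 against 12 reads), between peaks 4 and 5. On the Hoxd1 side it was 3.03 (1.94 to 4.85; 76 against 28 reads), between peaks 22 and 23.

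The break between the groups of peaks ran from 74513530 to 74524041, 10.5 kb without a peak. With 186 ChIP against 116 input reads its fold was 1.79 (1.41 to 2.28). ChIP reads were therefore still raised there, and the break was called among the gaps (exact test, adjusted p = 2.07e-05). Its fold was higher than in both flanks, where it was 1.05 (0.963 to 1.14; ratio 1.70, 1.32 to 2.20; Fisher's exact test, adjusted p = 0.000232). Against the gaps of both sides, with a fold of 2.32, the ratio was 0.769 (0.588 to 1.01; Fisher's exact test, adjusted p = 0.102), which did not pass. It passed with duplicate reads kept (ratio 0.735, adjusted p = 0.0357, same exact test). The longest other gap, 8583 bp between peaks 25 and 26 on the Hoxd1 side, had a fold of 1.90 (1.41 to 2.59), close to that of the break. Over the 194 gaps of 5 to 20 kb in the whole list the median fold was 1.38, and 48 had a fold at least that of the break, the break among them.

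Inside the break the fold was lowest in the fourth part from the Evx2 side and highest in the fifth, next to the Hoxd1 side. In 5 equal parts counted from the Evx2 side it was 2.59 (1.54 to 4.48), 1.53 (0.969 to 2.44), 1.45 (0.779 to 2.74), 1.02 (0.547 to 1.90) and 2.90 (1.56 to 5.66). The intervals of the inner 3 parts include 1, and those of the outer parts do not. Differences between the parts were not tested. In the same order the parts held 51, 48, 26, 22 and 39 ChIP reads against 22, 35, 20, 24 and 15 input reads. The fifth part thus had the highest fold with the fewest input reads, and fewer ChIP reads than the first and second parts. The share of the input in this profile was not tested. The input over the whole break was 1.23 times the chromosome median.

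Beyond the ends of the run of peaks no excess was detectable at this depth from 2 kb outwards. In the first 2 kb the fold was 1.67 (0.971 to 2.93) outside peak 1 and 2.23 (1.27 to 4.03) outside peak 26. From 2 to 5 kb it was 1.12 (0.656 to 1.90) on the Evx2 side and 0.808 (0.438 to 1.47) on the Hoxd1 side, and from 20 to 50 kb 0.971 (0.818 to 1.15) and 1.06 (0.895 to 1.25). The next peaks of the list lay 1374 kb before peak 1 and 984 kb after peak 26.

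**Figure D4:**
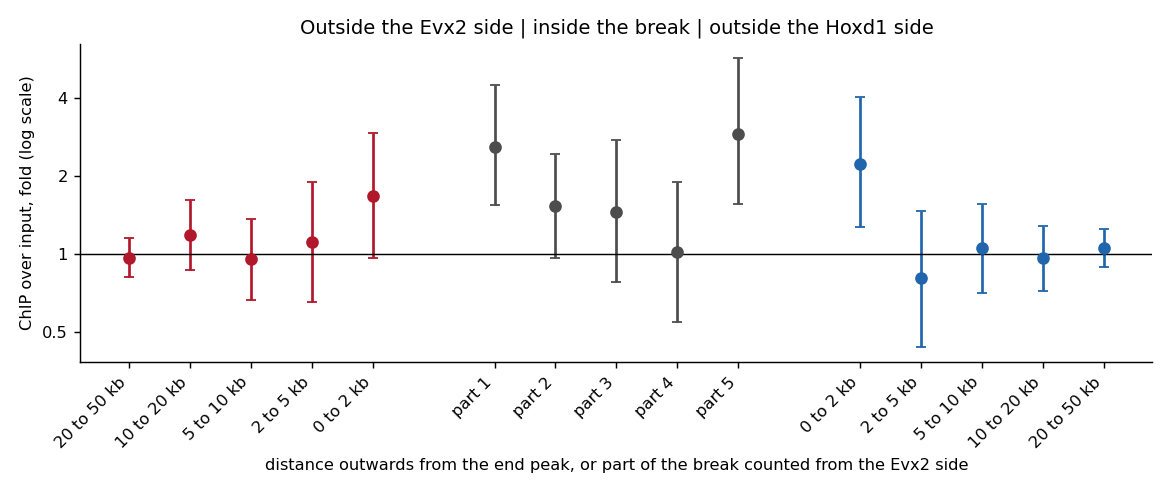
Fold of ChIP over input (y axis, log scale) with exact 95% intervals at growing distance outside the Evx2 side (red), in 5 equal parts of the break (grey) and outside the Hoxd1 side (blue). The fourth part of the break is at 1.02, and the outer parts are at 2.59 and 2.90.

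Counted per 1 Mb, HoxD belongs to the 4 windows richest in peaks. The other runs of peaks lie on chromosomes 6, 15 and 11, the chromosomes that carry HoxA, HoxC and HoxB. Peaks were joined over gaps of at most 20 kb, which gave 35, 26 and 25 peaks there. The HoxD run was the shortest, at 108 kb against 124 to 162 kb. Its fold in peaks, 4.56 (4.17 to 4.99), was above that of chromosome 11 (3.89; ratio 1.17, 1.04 to 1.32; Fisher's exact test, adjusted p = 0.0177), a difference that did not pass when only peaks at or above the median score were used (ratio 1.15, adjusted p = 0.123, same exact test). Against chromosome 6 the ratio was 1.08 (0.965 to 1.22) and against chromosome 15 it was 1.05 (0.928 to 1.20), and neither passed (adjusted p = 0.215 and 0.466 by Fisher's exact test). In the gaps, the break included, HoxD had a fold of 2.20 (1.97 to 2.46), above 1.65 on chromosome 6 (ratio 1.33, 1.16 to 1.53; Fisher's exact test, adjusted p = 0.000262). Its ratios to the gaps on chromosomes 15 and 11 were 1.12 (0.972 to 1.29) and 1.14 (0.982 to 1.32), with adjusted p of 0.154 and 0.136 by the same exact test. The gaps on chromosome 6 include 1 of 17.8 kb with 218 ChIP against 214 input reads, a fold of 1.14. The ratio to chromosome 6 without that gap was not tested.

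In HoxD the longest gap lay well inside the run, with 16 peaks before and 10 after it. On chromosomes 6, 15 and 11 the longest gap left 32 and 3, 24 and 2, and 23 and 2 peaks. Those gaps measured 17.8, 10.5 and 9.25 kb, with folds of 1.14 (0.937 to 1.38), 1.59 (1.25 to 2.03) and 1.75 (1.34 to 2.30). The break of HoxD has a length near those on chromosomes 15 and 11, and the intervals of the folds overlap, a difference that was not tested. These positions are a description of 4 runs with no test.

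**Figure D5:**
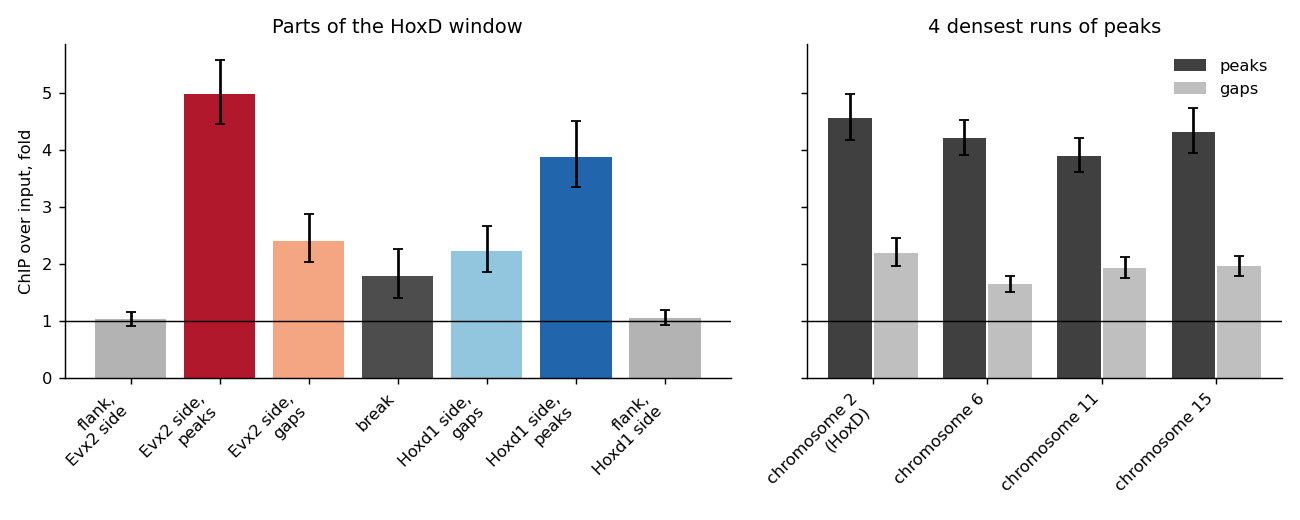
Fold of ChIP over input (y axes) with exact 95% intervals, left for the parts of the HoxD window and right for peaks and gaps of the 4 densest runs (x axes). Left, peaks stand at 4.98 and 3.87, gaps at 2.41 and 2.23, the break at 1.79 and the flanks near 1. Right, HoxD on chromosome 2 stands at 4.56 in peaks and 2.20 in gaps.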

How the data were processed

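For each library the authors deposited its aligned reads as positions with their strand, and 1 list of peaks. Per the submitters' processing notes, Bowtie and the mm8 build were used; no version is given. The peak names are those of MACS, per the file headers. Each peak carries the authors' deposited score, used only to rank peaks. Caller settings and the handling of multiply matching reads: not given in the sources used here. Adapter-ligated DNA had 14 cycles of PCR and gel selection of 150 to 400 bp, per the labels' protocols.

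Reads were all 42 bases long. From 23965625 ChIP and 26433784 input reads, 1 per 5′ end and strand was kept, which removed 8.38% and 7.33%. 5′ ends were moved inwards by 54 bp, 0.5 of the input's lag between strands (109 bp, searched from 60 to 300 bp). The ChIP lag was searched from a start below the read length and lay at the read length. The lags therefore do not compare the libraries. Peaks, gaps of at most 20 kb between neighbouring peaks, and 1 kb bins with at least 5 reads were tested over the whole genome with exact conditional binomial tests and Benjamini-Hochberg adjustment. Regions were compared with Fisher's exact test on reads, adjusted over 11 comparisons. Alternatives kept duplicates, left out the shift, or changed the scaling, fold, bins, peak widths, list, gap edges and split. No fold is given for gaps with 0 input and at most 3 ChIP reads. Tests were run on simulated counts drawn independently around the input. That simulation had no amplified reads and no selection of peaks, so it does not check the tests for these. Peaks given in full are, on each side, the 3 with the most ChIP reads, those of highest and lowest fold and the one at the break; some others are described as well. The members, the break and the lists were chosen with earlier results of these data known. Software was scipy 1.17.1, pandas 2.3.3 and numpy 2.4.6 under Python 3.11.15, with matplotlib 3.10.9 for plots.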

Additional observations from a re-analysis of the deposited data

How the results depend on the processing

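Of 85 values recomputed under alternatives, 76 stayed on the same side of the test or, for counts and folds, within 1.5 times or the interval, and none reversed. Chosen after the data were seen were 5 of them: the sides without the peak of most ChIP reads (ratio 1.44) or largest fold (1.28) on each side, and the break against the gaps of the Evx2 side (0.741, unadjusted p = 0.0453 by Fisher's exact test), of the Hoxd1 side (0.802, p = 0.155, same exact test) or the longest other gap (0.941, p = 0.776, same exact test). Some of the 76 could not have changed and are no sign of stability. Fisher's exact test was run on unscaled read counts, so neither change of the scaling could alter its p. Between chromosomes that p does not follow the scaling. Scaled by reads of the same chromosome, the gap ratio of HoxD to chromosome 11 became 1.16, and its interval, 1.004 to 1.34, left out 1. The joint fold of the members could not move with the fold threshold. Called members numbered 17 at a fold of 4 and 17 among peaks at or above the median score, where fewer peaks could count. Their joint fold of 4.56 became 4.12 with peaks widened by 500 bp. With bins of 5 kb 20 were called, over more kb. The ratio of the sides in peaks, 1.29, ran from 1.16 among those peaks to 1.44; it was 1.23 with the split at the middle of the span. The ratio of HoxD to chromosome 11 in peaks became 1.15 among those peaks. The ratio of the break to the gaps became 0.735 with duplicates kept, and ran from 0.734 to 0.941. The cause of these changes was not tested. Depth limits single values: the median was 66.5 ChIP and 20 input reads per member, and 14.5 and 10 per 1 kb bin of the window. No paired analysis was possible because each group has 1 library.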

Other observations

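Strand and duplicate values of the HoxD peaks belong to no comparison above. The plus-strand share of ChIP reads ran from 36.2% in peak 23 to 72.7% in peak 17, with a median of 48.8% over the 26 peaks. Duplicates made up 4.23% of ChIP and 3.15% of input reads in the peaks, below the 8.38% and 7.33% of the whole libraries. The densest 200 bp of any member held 32 ChIP and 7 input reads, at 74469326 to 74469525 in peak 4. In peak 25 the densest 200 bp, at 74553845 to 74554044, held 17 ChIP reads and no input read.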
